A study of Homo sapiens with 6 samples.

Results

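Aminoacyl-tRNA synthetases are the enzymes that attach each amino acid to its tRNA, and the mRNAs of 35 of them were followed in MDA-MB-231 cells treated with Parishin B (PB). The genes were taken by symbol from the 61806 genes of the deposited table, and all 35 were present, 19 with a cytosolic enzyme and 16 with a mitochondrial enzyme. The cytosolic genes were AARS1, CARS1, EPRS1, FARSA, FARSB, GARS1, HARS1, IARS1, KARS1, LARS1, MARS1, NARS1, QARS1, RARS1, SARS1, TARS1, VARS1, WARS1 and YARS1. The mitochondrial genes were AARS2, CARS2, EARS2, FARS2, HARS2, IARS2, LARS2, MARS2, NARS2, PARS2, RARS2, SARS2, TARS2, VARS2, WARS2 and YARS2. MDA-MB-231 is an established triple-negative breast cancer line, and PB is a plant compound. The study picked PB by docking against the pseudokinase TRIB3. It also reported a thermal shift assay, co-immunoprecipitation of TRIB3 and AKT1, and a rescue by TRIB3 overexpression. The control group and the group given 20 μM PB for 24 h held 3 samples each, and the vehicle of the control group is not given in the sources used here. Total counts per sample lay between 15681655 and 21986948.

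Each cytosolic synthetase charges tRNA for the ribosomes of the cytoplasm, and a separate set, encoded in the nucleus and imported, charges tRNA inside mitochondria. GARS1 and KARS1 give the enzyme of both compartments from a single gene, and EPRS1 joins the glutamate and proline enzymes in a single protein. Several cytosolic enzymes sit in the multisynthetase complex, and the others act outside it. Uncharged tRNA is sensed by the kinase GCN2, which raises translation of the transcription factor ATF4, and ATF4 binds C/EBP-ATF response elements whose core is read TGATGNAA, in many genes of amino acid supply.

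This core was searched on both strands of the RefSeq promoter windows (GRCh38.p14), which run from 250 bases before to 50 bases after each start site. It was present in at least 1 window of 8 of the 30 members that had a window. LARS1, YARS1, VARS1, AARS2 and VARS2 were not matched. The share was 3.62% over all 35116 windows of the table and 4.46% counted by gene symbol. Of the 8 members, 7 were cytosolic and all 7 rose with PB in the fit across all genes, out of 10 rising cytosolic members with a window. The rising cytosolic members with a window but no match were WARS1, SARS1 and EPRS1, with fitted log2 fold changes of 1.46, 1.35 and 0.62. Those of the 7 with a match ran from 0.49 for NARS1 to 1.39 for GARS1. Among the 6 falling cytosolic members with a window 0 held the core. The eighth was the mitochondrial YARS2, which fell. The YARS2 match was TGATGGAA and is left out of the sequences below. Around the match in each of the 7 cytosolic members, picked with their shared direction known, 30 bases are shown. They are written 5′ to 3′ on the strand of the gene, with the match in capitals:
AARS1: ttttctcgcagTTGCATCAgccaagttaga
CARS1: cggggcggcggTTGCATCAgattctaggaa
GARS1: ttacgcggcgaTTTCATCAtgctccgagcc
IARS1: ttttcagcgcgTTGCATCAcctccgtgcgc
MARS1: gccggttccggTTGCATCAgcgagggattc
NARS1: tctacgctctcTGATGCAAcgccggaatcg
TARS1: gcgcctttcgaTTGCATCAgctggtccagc

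In 5 of the 7 genes the letters were TTGCATCA, the reverse complement of TGATGCAA, and NARS1 held that word in the opposite orientation. The GARS1 match was TTTCATCA. In 6 of the 7 the first base of the match lay within 40 bases of a RefSeq start site, and in AARS1 it lay 187 bases upstream of one. The windows are at chr16:70289675-70289704 for AARS1, chr11:3057407-3057436 for CARS1, chr7:30594834-30594863 for GARS1 and chr9:92293692-92293721 for IARS1. Those of MARS1, NARS1 and TARS1 are at chr12:57488053-57488082, chr18:57621804-57621833 and chr5:33440956-33440985. A match is a description of letters in a window, not evidence that a factor binds there, and no match says nothing about the factor. With matches upstream of a RefSeq start site alone, 4 members were left (AARS1, GARS1, IARS1 and YARS2). In the gene spans of the deposited table, the AARS1, GARS1 and IARS1 windows lie inside the gene. Of the other motifs searched, the NRF1 palindrome (GCGCA, any base, then GCGC) was found in 6 of the 30 members (5.78% of all windows), including MARS2, IARS2 and SARS1. The E-box CACGTG was found in 4 (7.26% of all windows), namely MARS2, CARS2, EARS2 and IARS1.

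Differences between the groups were tested on the raw counts of the 24200 genes whose FPKM (fragments per kilobase of exon, scaled to the total count of the sample) averaged 0.1 or more, with edgeR's quasi-likelihood test and TMM normalization. Below, log2FC is the fitted log2 fold change (PB over control) and SE its standard error. A gene is said to have risen or fallen when its adjusted p was 0.05 or less, and to be a differentially expressed gene (DEG) when log2FC was also 1 or more, up or down. All 35 members were tested. Replicates were tight, and 50.2% of all genes tested passed in either direction, 24.1% higher and 26.1% lower with PB. For DEGs the shares were 5.36% higher and 6.73% lower. FPKM values carry no TMM scaling. Scaling by library size alone put the median log2FC over all genes at 0.14 in place of 0.011, and FPKM ratios lie higher than the fitted values by about that shift.

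Markers of the line were checked in the same samples. All 6 genes that mark it (VIM, CD44, EGFR, AXL, CAV1 and MSN) were present, with summed FPKM of 1046 to 1074 in the control samples and 983.0 to 986.6 with PB, and all 6 fell. Their median log2FC was -0.566, the largest decrease was -1.16, and 1 was a lower DEG. The summed FPKM rests largely on the most abundant of the 6, at a control mean of 603 FPKM. VIM had the smallest decrease, a log2FC of -0.059 that turned to 0.075 with library size alone. The low markers ESR1, PGR and ERBB2 summed to 2.96 to 3.27 FPKM and 3.59 to 3.99 FPKM. Of 12 epithelial genes, 10 were tested, 7 fell and ESRP1 rose, and their summed FPKM was 441.3 to 448.3 in the control samples and 160.2 to 165.7 with PB. KRT7 went from 44.5 to 0.440 FPKM and CDH1 from 3.98 to 0.0133 FPKM. GRHL2 and CLDN7 were near 0 in both groups, and 0 of the 12 were at 0 in all 3 PB libraries. Counts of 30 or more in each control library beside 3 or fewer in each PB library were found in 113 genes, and the reverse in 1. These 113 held 0.178% to 0.181% of control counts. Mitochondrially encoded genes took 4.30% to 4.34% of counts in the control samples and 3.69% to 3.78% with PB. The part of these differences in the synthetase results was not tested.

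With PB the cytosolic synthetases were divided into a larger group that rose and a smaller group that fell. Of the 19, 12 rose (63.2%), 7 fell (36.8%) and 0 stayed under the threshold. The median log2FC was 0.57, and the range ran from -0.78 for FARSB to 1.46 for WARS1. Of the 12 that rose, WARS1, GARS1, CARS1, SARS1 and AARS1 were DEGs, which is 5 of 19 members beside 5.36% of all genes, and 0 were lower DEGs. Of the 16 mitochondrial members 1 rose (6.25%), 9 fell (56.2%) and 6 did not pass. Their median log2FC was -0.23, with a range from -0.87 for MARS2 to 0.41 for VARS2, and 0 were DEGs. With library size alone that median was -0.095 and 3 members rose in place of 1, and with limma on log2 FPKM it was -0.078 or -0.068 by pseudocount. DESeq2 gave the same calls for all 35 genes. All genes tested had a median of 0.011.

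**Figure D1:**
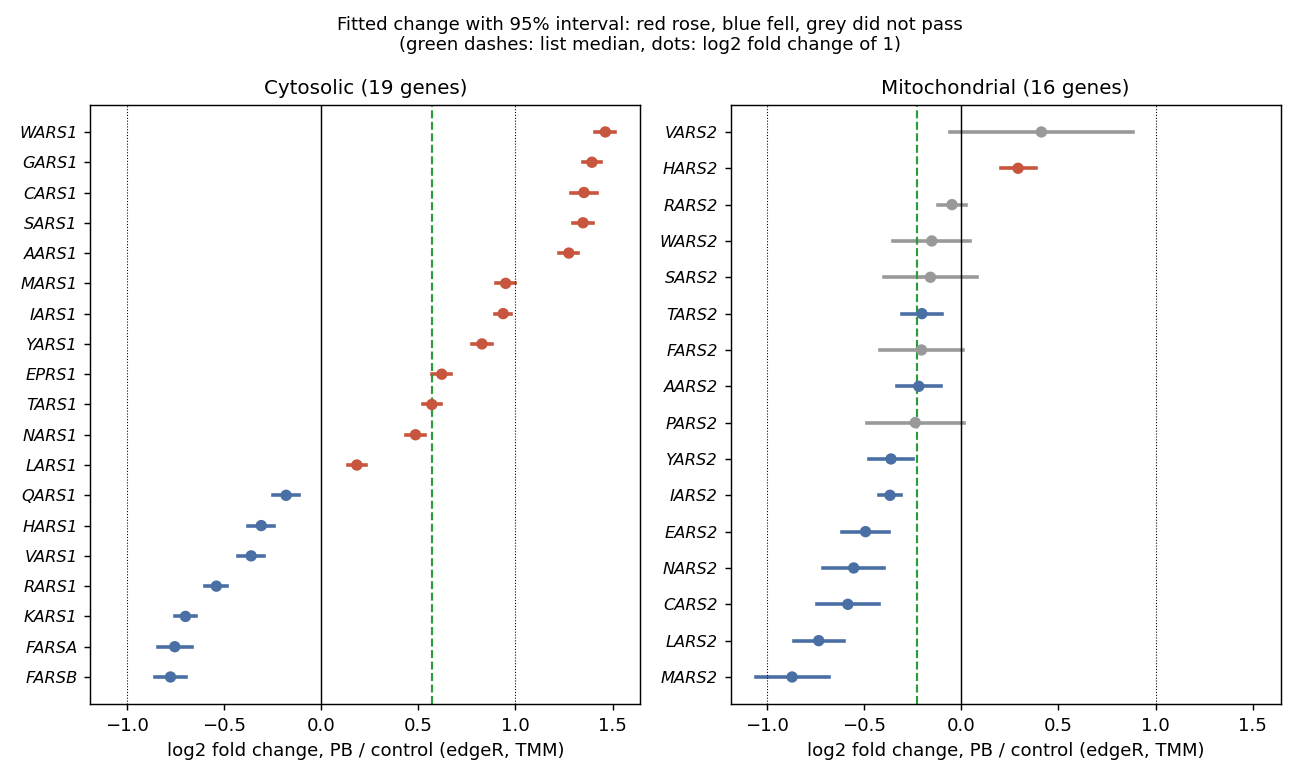
Fitted log2 fold change of PB against control (horizontal axis) for the 19 cytosolic genes (left) and 16 mitochondrial genes (right). Points are edgeR estimates from 3 samples a group, lines are 95% intervals, green dashes are the list medians of 0.57 and -0.23, and dotted lines mark a log2FC of 1 in either direction. The 5 cytosolic DEGs lie to the right of the dotted line at 1, and no mitochondrial point reaches either line.

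WARS1, the tryptophan enzyme, had the largest increase. It was at 27.31, 28.21 and 27.41 FPKM in the control samples and at 82.65, 84.16 and 83.82 FPKM with PB. The groups did not overlap, and the 3 PB samples were close to each other. Its log2FC was 1.46 (SE 0.026), with a log10 of the adjusted p of -666.8 in edgeR's quasi-likelihood test. The size of such p-values depended on the genes fitted, since when only genes averaging 1 FPKM or more were fitted, the adjusted p of WARS1 was 1.57e-43. In an exact permutation test (two-sided) on FPKM the p of WARS1 was 0.1, which is the lower limit for groups of 3, and the same holds for every member below whose groups are said not to overlap.

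GARS1, the glycine enzyme of both compartments, was at 17.39, 16.40 and 16.65 FPKM in the control samples and at 47.60, 48.45 and 49.28 FPKM with PB, a log2FC of 1.39 (SE 0.024). SARS1 charges serine and also the tRNA on which selenocysteine is made. It went from 37.31, 38.19 and 37.97 FPKM to 104.02, 104.16 and 108.48 FPKM, a log2FC of 1.35 (SE 0.028). SARS1 moved from rank 6 to rank 3 among the cytosolic members by FPKM.

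CARS1, the cysteine enzyme, was the lowest of the 19 in the control group, at 6.67, 6.21 and 6.86 FPKM. With PB it was at 18.33, 18.52 and 18.55 FPKM, a log2FC of 1.35 (SE 0.035). AARS1, the alanine enzyme, was at 21.46, 21.79 and 21.88 FPKM in the control samples and at 57.11, 57.55 and 58.21 FPKM with PB, a log2FC of 1.27 (SE 0.025). In none of these 5 genes did a PB sample overlap a control sample. In the coordinates of the table (GRCh38) they are WARS1 (ENSG00000140105, chr14:100333790-100376805, minus strand), GARS1 (ENSG00000106105, chr7:30580533-30634033, plus), SARS1 (ENSG00000031698, chr1:109213918-109238182, plus), CARS1 (ENSG00000110619, chr11:3000922-3057613, minus) and AARS1 (ENSG00000090861, chr16:70251983-70289707, minus). In the fit of genes averaging 1 FPKM or more their adjusted p-values lay between 2.24e-43 and 6.98e-36 for GARS1, SARS1, AARS1 and CARS1 in edgeR's test.

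The next members rose by less than the DEG line. MARS1, which charges methionine for elongation and for initiation, had means of 33.7 ± 0.533 and 71.5 ± 0.840 FPKM (SD, n = 3) and a log2FC of 0.95 (SE 0.025). IARS1, the isoleucine enzyme, went from 24.4 ± 0.330 to 51.2 ± 0.348 FPKM (SD, n = 3), a log2FC of 0.94 (SE 0.022). With library size alone in place of TMM, or with limma on log2 FPKM, both became DEGs and the count was 7. YARS1 (tyrosine), EPRS1, TARS1 (threonine) and NARS1 (asparagine) had log2FC values of 0.83, 0.62, 0.57 and 0.49. LARS1, the leucine enzyme, rose least, from 21.3 ± 0.342 to 26.5 ± 0.580 FPKM (SD, n = 3), a log2FC of 0.18 (SE 0.023).

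MARS1 overlaps a neighbouring gene. It lies on the plus strand of chromosome 12, from 57475445 to 57517569, and its end overlaps the end of DDIT3, on the minus strand, by 982 bases. In GENCODE release 29 the exons of the genes shared 355 of the 7028 exonic bases of MARS1. DDIT3, a stress transcription factor, held 723 counts summed over controls and 11974 over PB samples, and MARS1 held 13170 and 25400. The strand setting of the counting is not given in the sources used here, and the part of DDIT3 reads in the MARS1 count was not tested. Gene spans of 27 of the 35 members overlapped another gene. The medians over the remaining members were 0.53 for 6 cytosolic genes and -0.14 for PARS2 and RARS2.

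**Figure D2:**
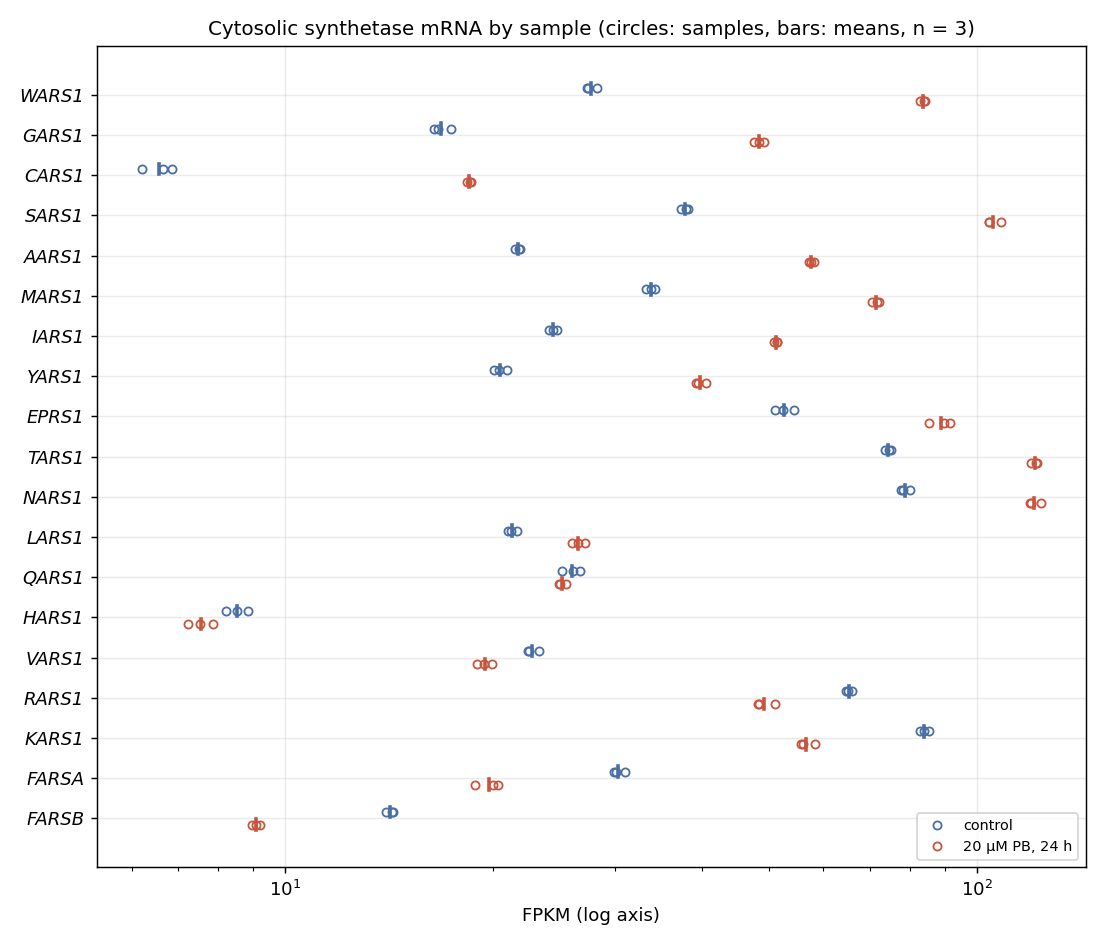
FPKM of the 19 cytosolic synthetase mRNAs (horizontal log axis) in each of the 3 control samples (blue circles) and 3 PB samples (red circles), with bars at the group means and genes ordered by fitted log2FC. From LARS1 upward every PB sample lies to the right of every control sample, QARS1 overlaps, and below it every PB sample lies to the left.

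Of the 7 cytosolic members that fell, FARSB and FARSA encode the subunits of a single enzyme, the phenylalanine synthetase. FARSB was at 14.30, 14.27 and 13.98 FPKM in the control samples and at 8.95, 9.21 and 9.09 FPKM with PB, a log2FC of -0.78 (SE 0.040). FARSA was at 29.89, 30.99 and 30.10 FPKM and at 18.80, 19.99 and 20.29 FPKM, a log2FC of -0.75 (SE 0.044). The subunits moved by values that lie within each other's 95% intervals (-0.85 to -0.70 for FARSB and -0.84 to -0.67 for FARSA).

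KARS1, the lysine enzyme of both compartments, was the highest cytosolic member in the control group, at 85.31, 83.72 and 82.63 FPKM. With PB it was at 55.65, 55.96 and 58.31 FPKM (log2FC -0.70, SE 0.027) and stood at rank 8. Among controls the order was KARS1, NARS1, TARS1 and RARS1, at means of 83.9, 78.7, 74.4 and 65.2 FPKM. With PB it was TARS1 and NARS1, at 121.2 ± 1.39 and 120.8 ± 2.38 FPKM (SD, n = 3), which did not differ beyond their spread, then SARS1 at 105.6 FPKM. Such orders rest on the exonic lengths of the table, which sum all annotated exons of a gene.

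RARS1 (arginine), VARS1 (valine) and HARS1 (histidine) had log2FC values of -0.54, -0.36 and -0.31, and their groups did not overlap. QARS1, the glutamine enzyme, was the weakest call, at 26.09, 26.65 and 25.14 FPKM in the control samples and at 25.51, 24.85 and 24.93 FPKM with PB. Its groups overlapped. The log2FC was -0.18 (adjusted p = 4.754e-07 in edgeR's test), and with library size alone it was -0.047 with an adjusted p of 0.246 in the same test. DESeq2 called it lower, and limma on log2 FPKM did not call it. In 18 of the 19 cytosolic genes the FPKM values of the groups did not overlap (12 higher and 6 lower with PB), where 55.6% of all genes tested did not overlap, 34.1% higher and 21.6% lower.

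Both rising and falling genes were found inside and outside the multisynthetase complex. Of the 7 cytosolic members in the complex (EPRS1, IARS1, LARS1, QARS1, MARS1, KARS1 and RARS1) 4 rose, 3 fell and 0 were DEGs, with a median log2FC of 0.18. Of the 12 outside it 8 rose and 4 fell, all 5 DEGs were among them, and the median was 0.70. Over all genes tested 24.1% rose and 26.1% fell. The difference between members inside and outside the complex was not tested. The scaffold proteins of the complex did not rise. AIMP2 and EEF1E1 fell, with log2FC values of -0.52 and -0.51, and AIMP1 had -0.001 (adjusted p = 1 in edgeR's test), or 0.13 and a call higher with library size alone. By the fold of the catalytic domain, 6 of 9 class I and 5 of 9 class II cytosolic members rose, EPRS1 being set aside because it holds both folds.

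The mitochondrial synthetases were at lower levels, with a median control FPKM of 3.88 over the 16 genes, compared with 26.0 over the 19 cytosolic genes. MARS2, the methionine enzyme of mitochondria, had the largest decrease. It was at 5.14, 4.67 and 5.60 FPKM in the control samples and at 2.97, 3.35 and 2.98 FPKM with PB, a log2FC of -0.87 (SE 0.096, adjusted p = 7.553e-19 in edgeR's test). LARS2, the leucine enzyme, was at 2.51, 2.63 and 2.47 FPKM and at 1.73, 1.58 and 1.69 FPKM, a log2FC of -0.73 (SE 0.066). The groups were apart in both genes.

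CARS2, NARS2 and EARS2 (cysteine, asparagine and glutamate) had log2FC values of -0.58, -0.55 and -0.49. IARS2 was by far the most abundant of the 16, at 53.90, 53.41 and 54.51 FPKM in the control samples and at 46.30, 44.29 and 46.99 FPKM with PB, a log2FC of -0.37 (SE 0.029). YARS2 had -0.36, AARS2 -0.22 and TARS2 -0.20. With library size alone AARS2 and TARS2 no longer passed, with log2FC values of -0.086 and -0.070, and the count that fell was 7. FARS2, PARS2, SARS2, WARS2, RARS2 and VARS2 did not pass, with log2FC values of -0.21, -0.24, -0.16, -0.15, -0.048 and 0.41. RARS2 turned to 0.085 with library size alone and then passed as higher (adjusted p = 0.0361 in edgeR's test). WARS2 fell without PB replicate 3 (log2FC -0.30) and had -0.076 without PB replicate 1 and -0.102 without PB replicate 2. PARS2 had -0.084 without control replicate 3, SARS2 had -0.294 without PB replicate 3 and -0.091 without PB replicate 2, and RARS2 had -0.022 without PB replicate 3, none of which passed.

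**Figure D3:**
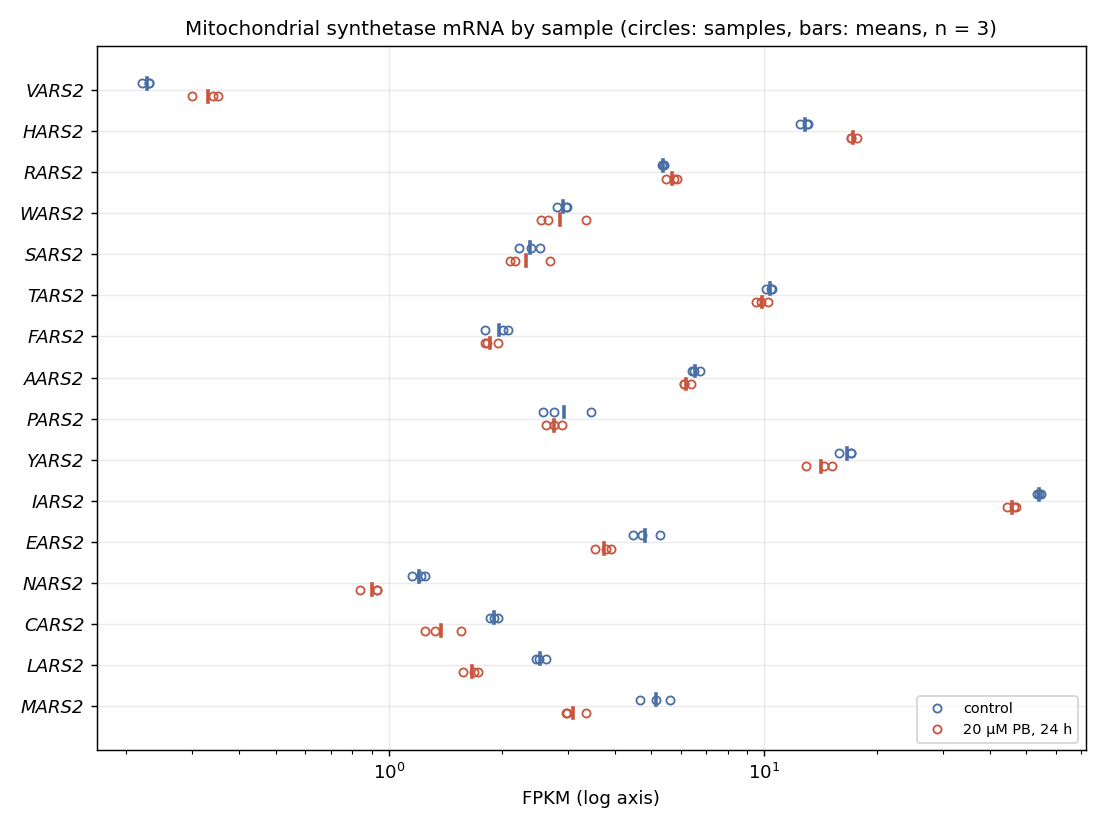
FPKM of the 16 mitochondrial synthetase mRNAs (horizontal log axis) in each of the 3 control samples (blue circles) and 3 PB samples (red circles), with bars at the group means and genes ordered by fitted log2FC. HARS2 is higher and MARS2 and LARS2 are lower in every PB sample, while circles of SARS2, WARS2 and PARS2 interleave.

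VARS2 was the least covered member, with 24, 26 and 31 counts in controls against 35, 30 and 43 under PB, and its 95% interval ran from -0.060 to 0.884. Its FPKM was 0.23, 0.23 and 0.22 in the control samples and 0.34, 0.30 and 0.35 with PB, so the groups did not overlap. A change was not resolved at these counts with TMM, and with library size alone VARS2 rose (log2FC 0.54, adjusted p = 0.0462 in edgeR's test). A gene without a symbol on the same strand overlaps VARS2 by 12255 bases, with 59 counts summed over controls and 64 over PB samples. The part of this overlap in the low VARS2 counts was not tested. PARS2 had the widest control spread relative to its mean, at 2.58, 2.75 and 3.46 FPKM. In 11 of the 16 genes the groups did not overlap, 3 higher with PB (HARS2, VARS2 and RARS2) and 8 lower, beside the 55.6% of all genes given above (34.1% higher and 21.6% lower). FARS2, PARS2, SARS2, TARS2 and WARS2 had groups that overlapped.

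HARS2, the histidine enzyme of mitochondria, was the member of its list that rose, from 13.05, 12.45 and 13.01 FPKM in the control samples to 17.05, 16.99 and 17.65 FPKM with PB. The log2FC was 0.29 (SE 0.046, adjusted p = 8.086e-10 in edgeR's test), and each of the 3 PB values exceeded the highest control value. HARS1, the cytosolic gene for the same amino acid, was at 8.21, 8.84 and 8.52 FPKM in the control samples and at 7.24, 7.87 and 7.54 FPKM with PB. These genes lie head to head on chromosome 5, HARS1 from 140673035 to 140691537 on the minus strand and HARS2 from 140691430 to 140699305 on the plus strand. Their RefSeq start sites are 85 bases apart, and their promoter windows share 184 bases. The spans of the table overlap by 108 bases, while in GENCODE release 29, where the gene models differ, the exons shared 437 bases. Reads in the overlap cannot be assigned to either gene without strand.

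The lists were compared within an amino acid by the ratio of cytosolic to mitochondrial FPKM in each sample, over 17 pairs of genes. The ratio was higher with PB in 12 pairs and lower in 5, and in all 17 the control and PB samples did not overlap. Among single genes 55.6% of all those tested did not overlap, and no such share was computed for ratios. EPRS1 and FARS2 recur among the pairs, so the 17 are not separate observations. An exact two-sided permutation test gave p = 0.1 for each pair, the smallest possible, and 0.1 after Benjamini-Hochberg adjustment over the 17, so no pair could pass. The use of TMM log2 CPM in place of FPKM gave the same 12.

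CARS1/CARS2 had the largest shift. The ratio was 3.42, 3.25 and 3.69 in the control samples and 14.7, 13.9 and 11.9 with PB, which took the mean log2 ratio from 1.79 to 3.75. MARS1/MARS2 followed, with 6.46, 7.24 and 6.12 in the control samples and 23.8, 21.6 and 24.1 with PB, and its mean log2 ratio was higher by 1.81. Both pairs joined a cytosolic increase to a mitochondrial decrease.

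In FPKM the pair IARS1/IARS2 crossed equality, from 0.446, 0.463 and 0.447 in the control samples to 1.10, 1.16 and 1.09 with PB. The crossing rests on the exonic lengths of the table, 22418 bases for IARS1 and 4135 for IARS2. GENCODE release 29 gives 7401 and 4165. A shorter IARS1 length raises the ratio in every sample alike. With the GENCODE lengths the deposited counts put IARS1 above IARS2 in every sample of both groups, so the pair does not cross equality there. WARS1/WARS2, SARS1/SARS2 and AARS1/AARS2 had log2 differences of 1.64, 1.52 and 1.49. The ratio went the other way for VARS1/VARS2 (-0.77), HARS1/HARS2 (-0.60), FARSB/FARS2 (-0.56), FARSA/FARS2 (-0.55) and RARS1/RARS2 (-0.49). In these 5 pairs the cytosolic member was among the 7 that fell.

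**Figure D4:**
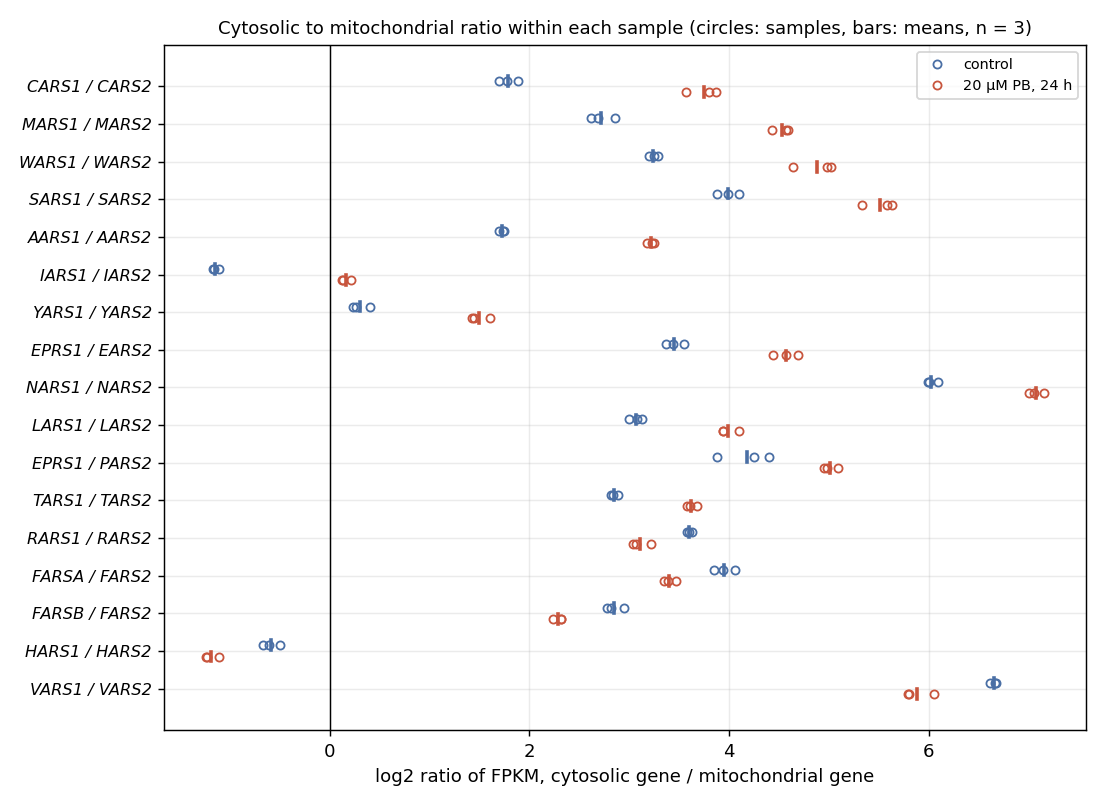
Log2 ratio of the FPKM of a cytosolic gene to that of the mitochondrial gene for the same amino acid (horizontal axis), within each control sample (blue circles) and PB sample (red circles), with bars at the group means. The upper 12 pairs moved to the right with PB and the lower 5 to the left, and IARS1/IARS2 crossed the line at 0. That line marks equal FPKM, and its place rests on the exonic lengths of the table.

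Summed over the 19 cytosolic genes, FPKM was 667.9, 669.3 and 663.8 in the control samples and 1015, 1020 and 1025 with PB. Over the 16 mitochondrial genes it was 131.7 ± 1.85 in the control group and 119.9 ± 3.19 with PB (SD, n = 3). The cytosolic sums were higher with PB and the mitochondrial sums lower, in units without TMM. The 35 genes took 0.498% to 0.499% of all counts in the control samples and 0.800% to 0.809% with PB. In these bulk samples, fewer cells that express a gene and less of its RNA per cell cannot be told apart.

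Other genes of tRNA charging moved both ways. TARS3, a further cytosolic threonine gene outside the 35, fell (-0.30). SEPSECS, which makes selenocysteine on its tRNA, rose from 4.44 to 8.49 FPKM (log2FC 0.80), while PSTK, which acts just before it, did not pass (-0.19, adjusted p = 0.180 in edgeR's test). Of the proofreading genes DTD2 fell (-0.62), and DTD1 (0.077) and AARSD1 (-0.014) did not pass. DTD1 passed as higher with library size alone (0.21).

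Of the genes that make or complete charged tRNA in mitochondria, GATB and MTFMT fell (-0.29 each), and QRSL1 and GATC did not pass (-0.068 and -0.071). With library size alone GATB and MTFMT did not pass either (-0.16 each). Among the 78 genes of mitochondrial ribosomal proteins 50 fell (64.1%) and 8 rose (10.3%), beside 26.1% and 24.1% of all genes tested. Their median log2FC was -0.29, over a range from -1.05 for MRPL23 to 0.71 for MRPL53, which did not pass. The next largest decreases were those of MRPL18, MRPL17 and MRPS12 (-0.88, -0.87 and -0.86). With library size alone 42 fell and 11 rose, and the median was -0.16. The mitochondrial synthetases, at a median of -0.23 (-0.095 with library size alone), stood beside these values, and a difference between the lists was not tested. TUFM, the mitochondrial elongation factor that carries charged tRNA, fell (-0.51), and its cytosolic counterpart EEF1A1 rose from 1135 to 1910 FPKM (0.62). EEF1A2 rose as well (0.34), EEF1B2 was called lower at -0.067, and EEF1D (0.050), EEF1G (0.26) and TSFM (0.006) did not pass. EEF1B2 was instead called higher with library size alone (0.066), where EEF1D passed as higher too (0.18).

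Of the genes of the response to uncharged tRNA, ATF4 was a higher DEG. ATF4 acts after GCN2 and does not itself sense tRNA. It was at 57.96, 61.24 and 57.63 FPKM in the control samples and at 150.43, 152.80 and 155.99 FPKM with PB (log2FC 1.24, SE 0.027). IMPACT, which restrains GCN2, rose (0.45), and GCN1, its partner, fell (-0.58). EIF2AK4, the gene of GCN2 itself, did not pass (0.046), and with library size alone it passed as higher (0.18). The deposited table assigns 39 more genes to its term for aminoacyl-tRNA biosynthesis, of which 21 were tested. Of those tested 5 rose (23.8%) and 7 fell (33.3%), beside 24.1% and 26.1% of all genes tested. The median of those tested was -0.019, and its larger changes included those of C1S (-2.79), a complement protease, ICA1 (0.81), a gene not known for tRNA charging, and SEPSECS.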

How the data were processed

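Sequenced mRNA of MDA-MB-231 cells came from 3 control samples and 3 given 20 μM PB for 24 h. Labels gave the groups, and the study's text gave the dose and time. Poly(A) RNA was sequenced as paired reads. The authors deposited raw counts per gene, used here as deposited, and the authors also deposited FPKM values, and dividing each count by gene length and library total returned 100% of them within 0.005. The submitters' processing notes name hg38, HTSeq 0.6.1, Cufflinks 2.2.1 and DESeq2. The aligner and the strand setting are not given in the sources used here. Every column of values matched a labelled sample. Samples are not stated to be separate cultures, so p-values rest on the spread between these samples, which may be technical. In edgeR's main fit the median prior degrees of freedom were infinite. The spread behind its p-values was therefore pooled over genes and was not a gene's own. Replicates differed by more than sampling noise (chi-square per degree of freedom 1.45 to 1.92 over genes with at least 20 counts).

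Genes averaging 0.1 FPKM or more were fitted with edgeR 4.0.16 in R 4.3.3 (TMM, quasi-likelihood test, Benjamini-Hochberg adjustment over 24200 genes, common dispersion 0.000495). Standard errors are the log2 fold change divided by the root of F. Alternatives used DESeq2 1.42.0 and limma 3.58.1. Single values were compared with exact permutation tests (scipy 1.17.1). The procedures were also run on simulated counts, with a larger dispersion and far fewer changed genes than in these data. That run therefore does not measure the error rates here. At this depth 3 counts are 0.136 to 0.191 CPM, and such floors cover counting error only. Members, lists and motifs were chosen with earlier results of these data known. All 35 members were to be accounted for, and of other lists the 4 largest changes and any gene that a result turns on were to be named. Some genes of those lists are not reported here. MRPL53 and the marker genes singled out were chosen after their values were seen. Gene spans are those of the deposited table, and exons and promoters come from GENCODE 29 and RefSeq (GRCh38).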

Additional observations from a re-analysis of the deposited data

How the results depend on the processing

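Of 489 values of single members under the alternatives (other filters, DESeq2, limma on log2 FPKM, library size alone, the earlier form of the quasi-likelihood fit, the replicate block and each sample left out), 475 kept direction and call, and 29 of the 35 members did so under all of them. QARS1, AARS2 and TARS2 lost their call with limma or library size alone, VARS2 gained one with library size alone (0.54), and WARS2 gained one without PB replicate 3. RARS2 turned from -0.048 to 0.085 with limma at a pseudocount of 0.1 and with library size alone, and to 0.073 at a pseudocount of 1. The cytosolic median was 0.70 with limma at either pseudocount and with library size alone. The mitochondrial median was -0.078 with limma at a pseudocount of 0.1, -0.068 at a pseudocount of 1 and -0.095 with library size alone, where 3 mitochondrial members rose in place of 1. These settings hold no TMM factor. Without the members whose span overlaps another gene the mitochondrial median was -0.14, over 2 genes.

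With one sample left out at a time, 12 cytosolic members rose and 7 fell each time, 1 mitochondrial member rose, 9 to 10 fell, the cytosolic median ran from 0.56 to 0.58, and the mitochondrial median from -0.30 to -0.23. When a change of 1 or more on the log2 scale was asked beside the adjusted p, 2925 of the 12151 genes remained, with 5 cytosolic members higher, 0 lower and 0 mitochondrial members. At 2 the count was 886, with 0 members of either list. With matches upstream of a RefSeq start site alone, 4 members held TGATGNAA. The replicate block gave 11957 calls over all genes in place of 12151 and changed no member's call. The same replicate numbers showed no sign of pairs. Residuals of same-numbered samples correlated at -0.029, 0.043 and -0.029, and those of other numbers at -0.042 to 0.067. With 3 samples a group this check cannot tell whether the samples were paired. VARS2 had the fewest counts, at 24 in its lowest sample.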
